A study of Mus musculus with 4 samples.

Results

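Mouse miR-26a knockout cells that had received a miR-26a mimic were compared with wild-type cells, to see which genes still stood apart from the wild-type level once the microRNA had been supplied and which stood close to it. The comparison uses 2 of the 4 libraries of the study, 1 on each side, and covers all 12795 genes with at least 1 CPM (counts scaled to a common library size) in either of them. The cells were cultured fibroblasts, named synovial fibroblasts in the labels, that grew out of mouse shoulder joint capsule. The shoulder had been immobilized 1 week earlier, and RNA came from passage 2. The wild-type cells, named C57BL6/J, were not transfected. The knockout cells carried the genotype miR-26a -/-, and they were sequenced untransfected, after 24 h with 10 nM Silencer Negative Control siRNA, or after 24 h with 10 nM of the mimic, both given with Lipofectamine RNAiMax. Neither the background strain of the knockout nor the loci it removes could be read from the labels. Nor is it stated whether the 3 knockout libraries came from 1 culture, so genotype, animal and culture cannot be told apart.

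MicroRNAs are short RNAs that guide a silencing complex to messenger RNAs. Bases near the 5′ end of the guide, the seed, pair with sites that lie mostly in the 3′ untranslated region (3′ UTR), and the paired transcripts are usually lowered. MiR-26a is made from introns of genes for small phosphatases and is known as a brake on proliferation genes such as Ezh2 and on several matrix and inflammation genes in fibroblasts. The mimic is a duplex, and its strands are shown beside the natural mouse microRNAs (RefSeq, GRCm38.p6), with the seed, bases 2 to 8, in capitals:
mimic guide strand: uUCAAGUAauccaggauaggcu
mmu-miR-26a-5p: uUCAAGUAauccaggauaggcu
mimic passenger strand: cCUAUUCUugguuccuugcacg
mmu-miR-26a-1-3p: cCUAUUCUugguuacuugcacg
The guide had no difference from the natural miR-26a-5p, which is encoded on the plus strand at chr9:119031811-119031832 (Mir26a-1) and chr10:126995543-126995564 (Mir26a-2). The passenger differed from the natural 3p strand of Mir26a-1 by A14C, counted from 1 at the 5′ end with the natural base written before the position. A site for the guide was taken as TACTTGA, the complement of the seed, in the longest annotated 3′ UTR of a gene, and as the 8-base site TACTTGAA where the site is followed by A.

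Each value below is a level in TPM (transcripts scaled for length and library size) as the authors deposited it, or a log2 ratio to wild type computed from read counts after scaling for library size. Levels are given for wild type, untransfected knockout, negative control and mimic, in that order. A ratio is followed in parentheses by its exact 95% binomial counting interval. A gene was called when it differed at least 2-fold with an interval that excluded 0. With 1 library on each side no difference has a replicate check and no p-value is given, so every statement compares libraries, not conditions. The wild-type library enters all 3 comparisons, which makes their calls alike to an unknown extent. The libraries held between 17598763 and 19392655 counts. No value for mature miR-26a was used, and the knockout and the uptake of the mimic were therefore not checked directly. Markers of fibroblasts such as Pdgfrb and Thy1 were present in every library, but so were macrophage markers, and the 33 listed ones summed to 28407.7 TPM in wild type and to 40970, 39599.1 and 39489.2 TPM in the knockout libraries. In such mixed cultures fewer cells of a type and less RNA per cell cannot be told apart.

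After the mimic the knockout cells remained far from wild type. In the mimic library 742 genes were called higher (5.8% of those measured) and 986 lower (7.71%). The untransfected knockout had 755 higher (5.9%) and 898 lower (7.01%), and the negative control 746 higher (5.84%) and 1036 lower (8.1%). Of the 1653 genes called in the untransfected knockout, 1371 (82.9%) were called in the same direction with the mimic, against 1364 (82.5%) with the negative control. Over the genes called higher in the knockout, the median log2 ratio to wild type was 1.41 untransfected, 1.35 with the negative control and 1.34 with the mimic. Over those called lower it was -1.48, -1.60 and -1.52. Both sets were picked by the untransfected library, so its medians and those of the transfected libraries are not on equal terms. The median over all measured genes with the mimic was 0.02, and 6020 genes (47.0%) lay within 1.2-fold of wild type.

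**Figure D1:**
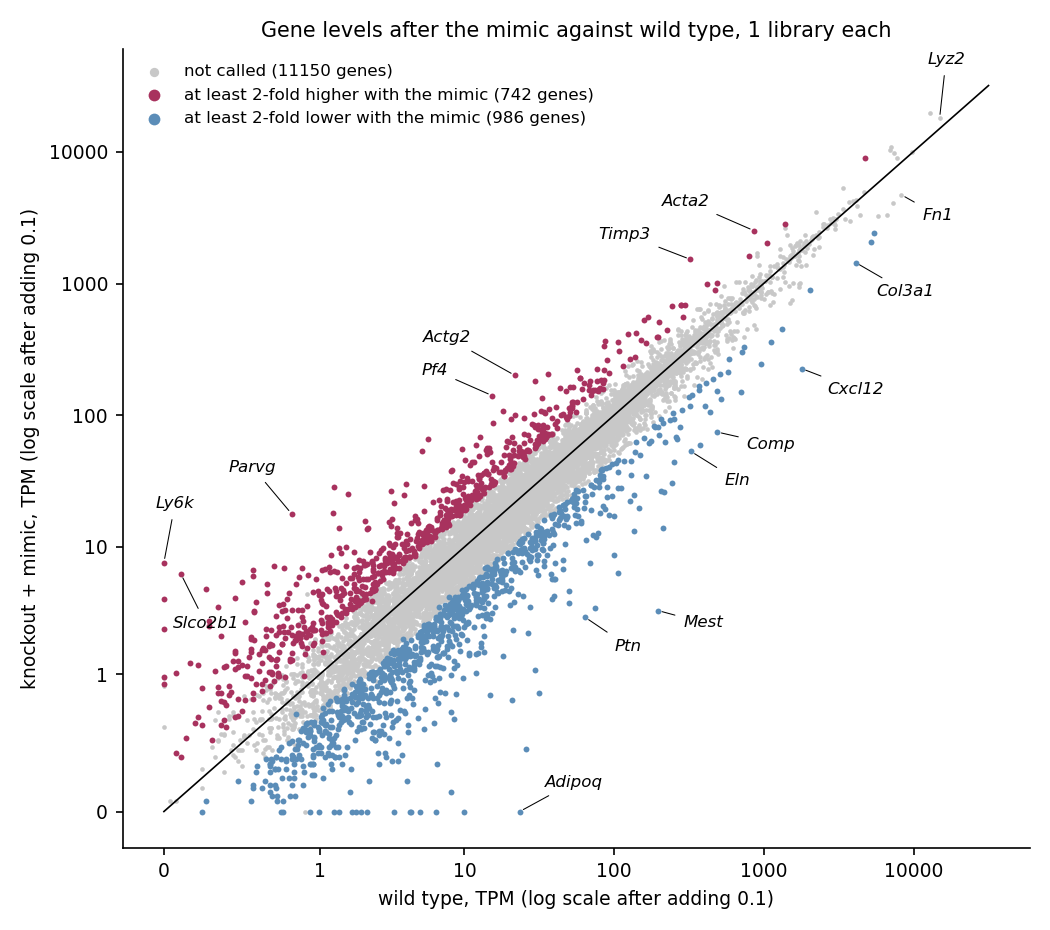
Level of each gene in wild type (x axis) and in the knockout with the mimic (y axis), in TPM on log scales after adding 0.1, for genes with at least 1 CPM in 1 or more libraries of the comparisons. The line marks equal levels; 742 genes called higher and 986 called lower lie on either side of it, and labelled genes are described in the text.

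Genes that build the extracellular matrix were among those that stayed lowest. The fibrillar collagens together were lower than wild type in all knockout libraries, with summed levels of 17585.7, 7512.73, 7641.83 and 8326.07 TPM. With the mimic 5 of the 11 were called lower and 1 higher, with a median log2 ratio of -0.90, beside -1.05 untransfected and -1.04 with the negative control. Col3a1, the fibril collagen of loose tissue, stood at 4127.74, 1265.33, 1263.44 and 1437.92 TPM, and its mimic ratio was -1.44 (-1.45 to -1.42). Col1a1, the main chain of type I collagen, stood at 5820.98, 2779.62, 2733.3 and 3233.5 TPM, a mimic ratio of -0.76 (-0.77 to -0.75) that did not reach 2-fold. Both were lower in each knockout library than in wild type, and the mimic library was the highest of the 3. The member called higher was Col2a1, the collagen of cartilage, at 0.53, 4.42, 3.32 and 6.84 TPM.

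Other matrix families showed the same direction to different degrees. Of 10 small leucine-rich proteoglycans, which coat and space collagen fibrils, 5 were called lower and none higher, with a median of -1.10. Lum, which encodes lumican, had 100.42, 14.31, 6.74 and 8.65 TPM, and Aspn, asporin, had 207.04, 32.13, 27.08 and 26.77 TPM. For both genes the mimic library lay below the untransfected knockout. Among collagen VI and the fibril-associated collagens 4 of 7 were called lower, with a median of -1.20. Col6a1 and Col6a2, chains of the pericellular collagen VI, had mimic ratios of -1.48 (-1.50 to -1.45) and -1.55 (-1.58 to -1.52). Basement membrane genes were more evenly split, with 3 of 22 called higher, 3 lower and a median of -0.12. Npnt, which encodes the integrin ligand nephronectin, stood at 3.07, 8.44, 2.27 and 10.66 TPM, less than 1.5-fold from wild type in the negative-control library alone.

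Elastic fibre genes had 7 of 19 members called lower and none higher, with a median of -0.75. Eln, which encodes elastin, stood at 328.04, 38.74, 11.7 and 53.31 TPM and had a mimic ratio of -2.53 (-2.61 to -2.46). Among the knockout libraries it was highest with the mimic. Fbn2, a microfibril protein, had a mimic ratio of -2.15 (-2.33 to -1.98). Mfap2, another microfibril protein, was also below wild type but lowest with the mimic, at 64.79, 20.67, 16.46 and 11.26 TPM. Among 27 matricellular and adhesive glycoproteins 7 were called lower and none higher, with a median of -0.56. Comp, a pentameric glycoprotein of cartilage and tendon, had 491.02, 80.57, 45.02 and 74.87 TPM. Tnc, tenascin-C, a glycoprotein of injured tissue, had 334.6, 96.98, 43.85 and 142.79 TPM, the nearest to wild type being the mimic library. Fn1, fibronectin, had 8277.85, 3994.65, 3958.29 and 4709.29 TPM.

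The enzymes that modify collagen stayed nearer to wild type than collagen itself. Of 24 measured, 1 was called higher and none lower, although 22 lay below wild type, with a median of -0.41. From deposited TPM in place of scaled counts, Pcolce and Loxl1 were called lower, with log2 ratios of -1.06 and -1.02. Loxl4, a lysyl oxidase that crosslinks collagen, was the higher one, at 7.59, 18.52, 17.62 and 22.33 TPM. Metalloproteinases and their inhibitors had 2 of 26 called higher and 7 lower. Mmp13, a collagenase, stood at 214.73, 15, 16.4 and 13.92 TPM, a mimic ratio of -3.86 (-4.03 to -3.70). Timp3, a matrix-bound inhibitor of these proteases, stood at 324.29, 1051.02, 708.86 and 1524.63 TPM, a mimic ratio of 2.32 (2.29 to 2.35), further from wild type with the mimic than in either other knockout library. Cemip, a protein that breaks down hyaluronan, also stood highest with the mimic, at 59.36, 95.43, 71.85 and 191.29 TPM.

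Markers of fibroblasts themselves were lower in part. With the mimic 8 of 21 measured fibroblast markers were called lower and 0 higher, and their median was -0.64. The summed level of the list differed little, at 10888.6, 11332.3, 9076.97 and 10624 TPM, and its most abundant members, S100a4 and Vim, were not called. Dpt, dermatopontin, had 217.73, 32.67, 30.71 and 26.05 TPM, and Fap, a surface protease of activated fibroblasts, had 45.83, 9.89, 8.63 and 7.98 TPM. Gas1, a growth arrest protein, stood at 373.53, 89.53, 59.73 and 59.22 TPM. Cxcl12, a chemokine made by stromal cells, had one of the largest losses in level, at 1799.99, 236.35, 213.42 and 226.3 TPM. For these genes the wild-type library was high and the 3 knockout libraries were low, and Gas1 was lower after either oligonucleotide than untransfected. The matrix and fibroblast genes were lower where the macrophage markers were higher, and the part of the macrophage markers in these differences was not tested.

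**Figure D2:**
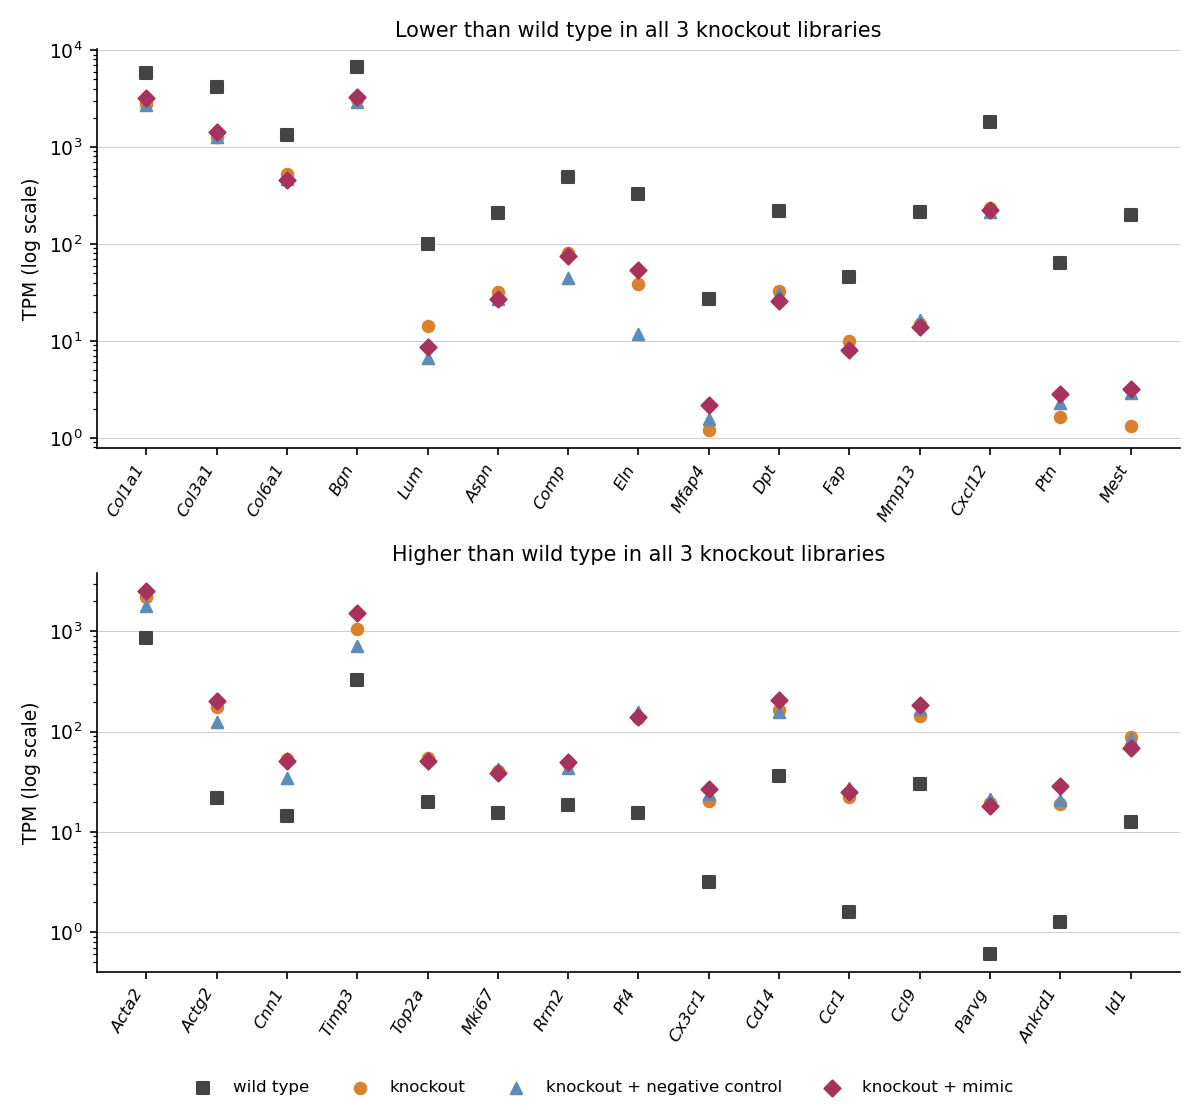
Levels in TPM on a log scale in the 4 libraries for named genes that stood below wild type (upper panel) or above it (lower panel) in all 3 knockout libraries; each point is 1 library. The mimic library sits with the other knockout libraries, as for Cxcl12 at 226.3 TPM against 1799.99 TPM in wild type and for Pf4 at 141.65 against 15.34 TPM.

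Macrophage genes stayed higher. Of 31 measured markers 12 were called higher with the mimic and 1 lower, with a median log2 ratio of 0.91, beside 0.96 in each of the other knockout libraries. The only marker at 0 counts in any library was Cd163, in the untransfected knockout. Lyz2, which encodes lysozyme, was the most abundant, at 14912.6, 18990.7, 17285.6 and 17807.1 TPM. Csf1r, the receptor on which macrophages depend for survival, had 140.65, 408.39, 441.23 and 425.26 TPM. Pf4, a chemokine of platelets and some macrophages, had 15.34, 135.99, 156.37 and 141.65 TPM, and Cx3cr1, the fractalkine receptor, had 3.17, 20.22, 23.63 and 26.58 TPM. Vsig4, a complement receptor of resident macrophages, was the 1 member called lower, at 3.06, 0.35, 0.08 and 0.26 TPM. Aif1, a macrophage actin-binding protein, stood at 20.3, 58.44, 62.67 and 33.54 TPM and was the only marker of the list more than 1.5-fold nearer to wild type with the mimic than in the untransfected knockout.

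Chemokines and cytokines went both ways, with 11 of 30 called higher, 7 lower and a median of 0.63. The macrophage chemokines Ccl9 and Ccl6 had mimic ratios of 2.70 (2.59 to 2.81) and 2.65, and Ccl9 stood at 29.95, 144.06, 166.88 and 183.27 TPM. Il1rn, the decoy that blocks the interleukin-1 receptor, had 709.14, 155.85, 149.6 and 151.4 TPM. Saa3, an acute-phase protein, stood at 4.66, 74.83, 14.27 and 17.21 TPM and was nearer to wild type after either oligonucleotide. Interferon-stimulated genes had 13 of 37 called higher and 0 lower. Their median was 0.84, beside 0.70 untransfected and 0.45 with the negative control. Oas1a, an antiviral synthetase, stood at 7.66, 15.87, 17.07 and 23.04 TPM. Ifi44 stood at 1.02, 0.9, 1.25 and 2.73 TPM, with a mimic ratio of 1.49 (0.83 to 2.28). Its ratio was -0.05 (-0.97 to 0.85) untransfected and 0.40 (-0.40 to 1.24) with the negative control.

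Genes of cell division also stayed higher. Of 54 genes of the G2 and M phases 26 were called higher with the mimic and 0 lower (median 0.99), while 35 were called higher in the untransfected knockout (median 1.22) and 33 with the negative control (median 1.18). Top2a, the DNA topoisomerase of dividing cells, had 20, 54.72, 54.75 and 50.41 TPM, a mimic ratio of 1.42 (1.30 to 1.53). Cdc20, which activates the complex that starts anaphase, had 18.53, 34.28, 31.4 and 26.05 TPM. Of 45 genes of the S phase 18 were called higher and 0 lower. Their median was 0.87, beside 0.75 and 0.84 without the mimic. Rrm2, a subunit of ribonucleotide reductase, had 18.43, 48.49, 43.35 and 50.2 TPM. These lists were higher in the libraries in which the macrophage markers were higher, and whether the dividing cells were fibroblasts or macrophages was not tested.

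Contractile genes of myofibroblasts were split, with 5 of 23 called higher and 4 lower. Acta2, smooth muscle actin, stood at 861.45, 2199.32, 1803.91 and 2516.9 TPM, a mimic ratio of 1.62 (1.58 to 1.65). Actg2, another smooth muscle actin, stood at 21.79, 177.14, 125.4 and 201.6 TPM, a mimic ratio of 3.29 (3.09 to 3.51). In both the mimic library was the farthest from wild type. The TGF-beta response list had 3 of 27 called higher, 3 lower and a median of 0.14. Id1, a target of the BMP branch of that family, stood at 12.66, 89.35, 84.19 and 68.23 TPM, a mimic ratio of 2.51 (2.18 to 2.89).

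Growth factors and patterning genes held several of the largest losses. Of 38 growth factors and secreted patterning proteins 12 were called lower and 4 higher. Ptn, a heparin-binding growth factor, had 64.44, 1.65, 2.31 and 2.86 TPM, and the ligand Wnt16 had 29.63, 0.95, 0.71 and 1.09 TPM. Of 14 imprinted genes 7 were called lower and none higher, with a median of -1.13. Mest, an imprinted gene of mesoderm, was the lowest of them, at 197.7, 1.32, 2.93 and 3.23 TPM and a mimic ratio of -5.83 (-6.20 to -5.52). Of 28 Hox genes, which record position along the body, 9 were called lower and 1 higher. Hoxa9 was lowest with the mimic, at 16.4, 8.55, 11.01 and 4.96 TPM, and its 3′ UTR holds an 8-base site, whereas Hoxd10 was higher, at 0.14, 1.43, 1.55 and 2.05 TPM.

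Markers of other tissues of the joint differed by tissue. Of 13 skeletal muscle markers 12 were called lower, of 11 Schwann cell markers 6 were lower, and of 9 adipocyte markers 6 were lower and 1, the lipase gene Lpl, was higher. Their median log2 ratios were -2.05, -1.33 and -1.72. Fewer were called lower among markers of cartilage and tendon (5 of 13, 1 higher), pericytes and smooth muscle (3 of 10, 1 higher) and osteoblasts (2 of 7). Endothelial markers had 1 of 7 called in each direction, with a median of 0.05. Adipoq, the fat hormone adiponectin, had 23.51, 0.11, 0.49 and 0 TPM, which was at least 70.8-fold lower with the mimic against a floor of 3 counts. Sox10, a transcription factor of Schwann cells, had 39.7, 13.67, 13.52 and 12.66 TPM. Ibsp, which encodes bone sialoprotein, was at 6.38 TPM in wild type and at 0 counts in all 3 knockout libraries, at least 33.3-fold lower with the mimic. The largest higher ratios included Ly6k, at 0 counts in wild type and 7.6 TPM with the mimic, at least 12.5-fold higher. Slco2b1, an organic anion transporter, had a ratio of 6.93 (5.42 to 13.22). Parvg, a parvin found mainly in blood cells, had 4.86 (4.18 to 5.89).

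**Figure D3:**
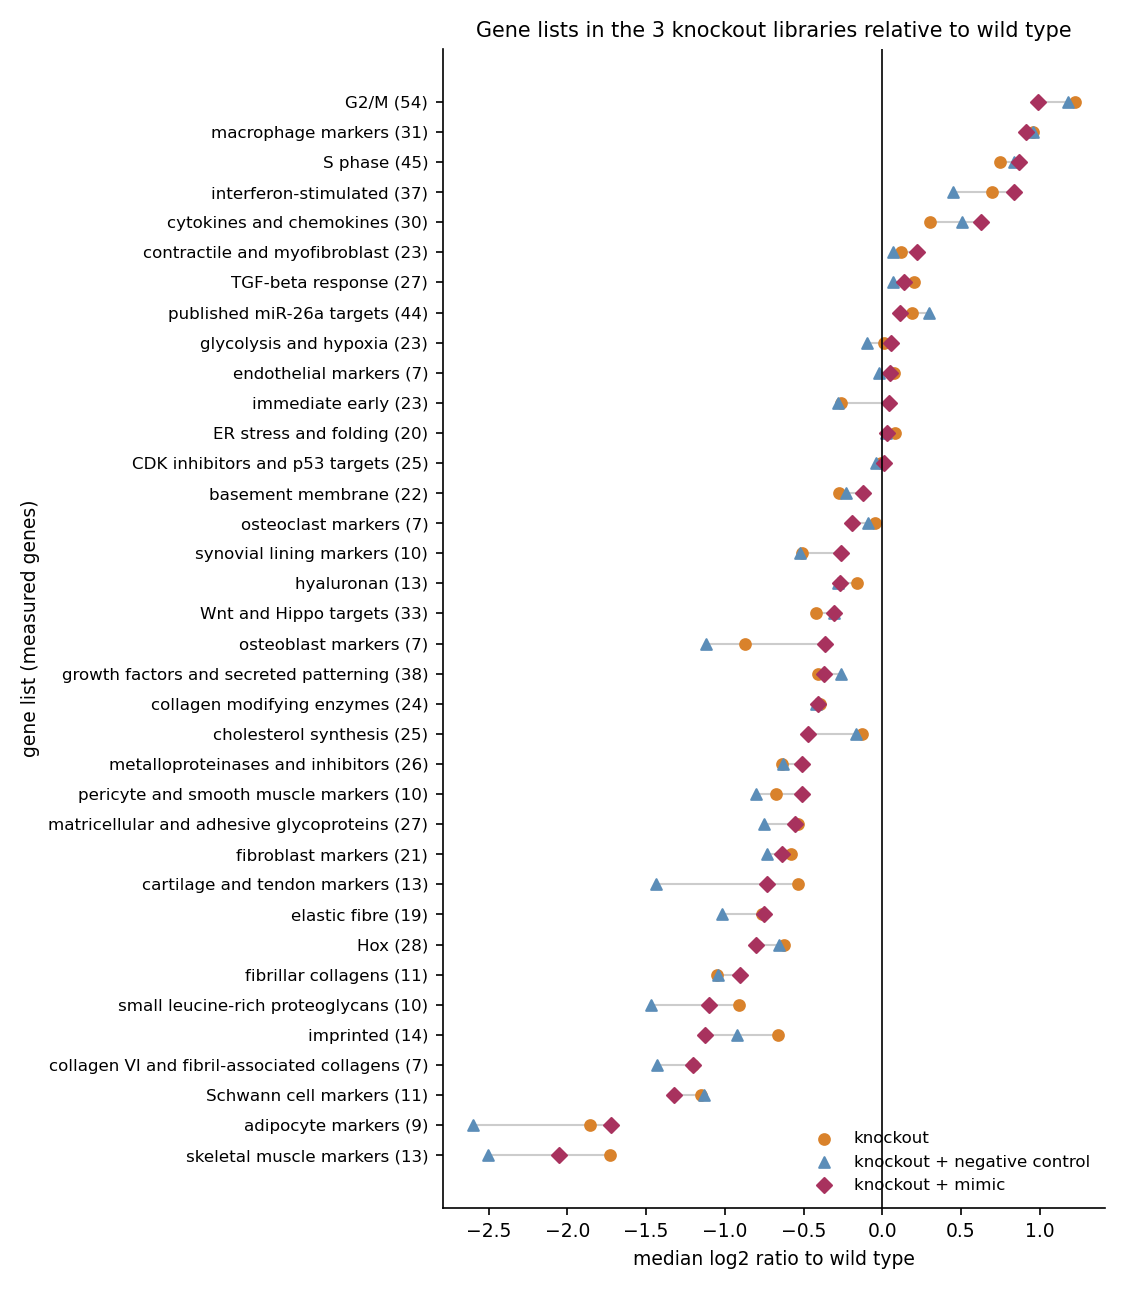
Median log2 ratio to wild type (x axis) of each gene list with at least 7 measured genes (y axis, number of genes in parentheses) in the untransfected knockout, negative-control and mimic libraries, ordered by the mimic. For most lists the 3 points lie on the same side of 0, as for fibrillar collagens at -1.05, -1.04 and -0.90, and of the 3 points of immediate early genes (-0.26, -0.28 and 0.04) the mimic lies nearest 0.

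Few of the genes that were called in the knockout came close to wild type with the mimic. Within 1.2-fold of wild type lay 7 of the 1653 with the mimic (0.423%) and 14 with the negative control (0.847%). The 7 were Ly75, Alpl, Ccdc18, Cib2, Cplane2, Gm46290 and Pip5k1b, all at or below 6.12 TPM in the mimic library. Cib2, a calcium- and integrin-binding protein, stood at 5.78, 10.68, 8.01 and 6.12 TPM. Alpl, the alkaline phosphatase of bone, stood at 1.49, 3.35, 1.34 and 1.35 TPM, so that it was close to wild type with either oligonucleotide. Movement by at least 1.5-fold in the direction of wild type, from the untransfected to the transfected library and also where it passed beyond wild type, was seen for 64 genes with the mimic (3.87%) and 96 with the negative control (5.81%). Movement of that size away from wild type was seen for 58 (3.51%) and 79 (4.78%). This limit was chosen after the values were seen. The genes were picked by their untransfected level, which favours movement in the direction of wild type over movement away.

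Among genes at 20 TPM or more in wild type or with the mimic, none of those called in the knockout lay within 1.2-fold. The nearest of them was Lrrn4cl, a membrane protein with leucine-rich repeats. It stood at 51.06, 21.96, 14.69 and 35.49 TPM, a mimic ratio of -0.44 (-0.58 to -0.31), and was the most abundant of the 14 genes that were called in both other knockout libraries and lay less than 1.5-fold from wild type with the mimic. The mirror count, with the mimic and the negative control exchanged, was 17. The order of these counts depended on the processing. At a 1.5-fold limit for a call they were 260 with the mimic and 167 with the negative control, from deposited TPM 16 and 15, and with a prior of 5 counts 14 and 13. The counts within 1.2-fold of wild type were 90 and 80 at the 1.5-fold limit and 7 and 7 from deposited TPM. Of the 14, 13 were genes lower in the knockout. Perp, a desmosome protein and the only one of the 14 that was higher in the knockout, stood at 2.33, 6.05, 6.01 and 2.98 TPM, and Rgs18, a regulator of G-protein signalling in blood cells, stood at 6.39, 2.46, 2.91 and 4.49 TPM. Gm46290 and genes with near-identical copies can share reads and are uncertain.

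Several other abundant genes nearest to wild type were nearer in both transfected libraries than untransfected. Mmp3, the protease stromelysin, stood at 72.21, 203.34, 91.83 and 101.14 TPM, a mimic ratio of 0.57 (0.46 to 0.69), and Cdsn at 149.74, 67.41, 93.38 and 93.95 TPM. Egr1, a transcription factor induced within minutes of a stimulus, stood at 160.81, 67.96, 78.45 and 94.16 TPM, and the immediate early gene Ier2 at 82.33, 35.82, 47.02 and 52.73 TPM. Of 23 measured immediate early genes, 17 lay less than 1.5-fold from wild type with the mimic, a share close to that of all measured genes (73.6%). Acvr2a, a receptor for activins, stood at 30.39, 13.56, 9.84 and 18.91 TPM and was nearest to wild type with the mimic and farthest with the negative control. Cdc42ep1, which binds the GTPase Cdc42, had the same order, at 55.46, 24.64, 15.11 and 32.35 TPM. Inhbb, a subunit of activin B chosen after its values were seen, stood at 14.65, 27.83, 15.57 and 16.88 TPM. It exceeded 20 TPM only in the untransfected knockout. Its mimic ratio of 0.29 (0.12 to 0.46) was nearer to wild type than that of Lrrn4cl.

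Some abundant genes stood farther from wild type with the mimic than untransfected, and the following were chosen after their values were seen. Mme, the surface peptidase neprilysin, stood at 74.67, 5.21, 4.64 and 3.39 TPM, a mimic ratio of -4.34 (-4.57 to -4.13). Nqo1, a quinone reductase of the oxidative stress response, stood at 15.48, 49.03, 69.16 and 87.62 TPM and was highest in the mimic library. Entpd4, which is among the 64 that moved in the direction of wild type, passed beyond it and was the 1 gene called in opposite directions, at 2.17, 6.02, 3.66 and 0 TPM, but it has a near-identical copy and is uncertain.

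The mimic library also differed from wild type where the untransfected knockout did not. Of the genes within 1.2-fold of wild type in the untransfected knockout, 6 were called higher and 8 lower with the mimic, against 7 and 14 with the negative control. Plau, the protease urokinase, stood at 84.28, 92.07, 134.29 and 159.11 TPM, higher after both oligonucleotides. Gmds, an enzyme of fucose synthesis, stood at 43.64, 34.62, 36.76 and 19.18 TPM, a mimic ratio of -1.10 (-1.33 to -0.87), and was low only with the mimic. Of 25 genes of cholesterol synthesis 2 were called lower with the mimic, a share near the 7.71% of all measured genes. Of the 25, 24 lay below wild type with the mimic, most by less than 2-fold, with a median of -0.47 beside -0.13 and -0.17 in the other knockout libraries. Acat2, the thiolase that starts the pathway, stood at 68.48, 64.81, 58.58 and 36.66 TPM, and Fdps, which makes farnesyl diphosphate, at 252.12, 222.58, 216.18 and 161.73 TPM.

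Genes with a miR-26a site lay slightly below the others. Between mimic and wild type the 1460 measured site genes had a median of -0.06 on the log2 scale, and the 11137 without a site 0.03. For the site genes the median was -0.03 in the untransfected knockout and -0.00 with the negative control. For genes without a site it was 0.01 and 0.02, so site genes lay below the others without the mimic as well. The 631 genes with the 8-base site had a median of -0.10. Of the site genes 4.32% were called higher and 7.88% lower, against 5.94% and 7.57% of genes without a site. Site genes had longer 3′ UTRs, with a median of 2696 bases against 1091, and the part of UTR length in these values was not tested.

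An order of levels that is high in the knockout and lowered by the mimic was found for 16 site genes. They exceeded wild type at least 1.5-fold in the untransfected knockout, and their mimic level was at least 1.2-fold below both other knockout libraries, with intervals that excluded 0. They were 1.10% of 1460 measured site genes, against 63 genes (0.565%) of 11141 without a site. The mirrored order, lower in the knockout and higher with the mimic, was found for 3 site genes (0.205%) and 59 others (0.530%). From deposited TPM in place of scaled counts, the restored order was found for 8 site genes and 36 others. With the mimic 6 of the 16 lay within 1.2-fold of wild type and 11 within 1.5-fold. Sites of 4 of the 6 within 1.2-fold are shown from GRCm38 as the transcript reads, 5′ to 3′, with the site in capitals:
Bloc1s2: tcaccgttTACTTGAatgcttca
Faim: tcttttgtTACTTGAaactgtaa
Abcg3: aacaacaaTACTTGAaacatgct
Skp2: ctaactacTACTTGAaactattg
All 4 are 8-base sites in 3′ UTRs of the GENCODE M21 annotation, at chr19:44139451-44139473 on the minus strand, chr9:99001825-99001847 on the plus strand, chr5:104936471-104936493 on the minus strand and chr15:9112191-9112213 on the minus strand.

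Bloc1s2, a subunit of a complex that builds lysosome-related organelles, stood at 46.78, 66.24, 69.64 and 44.36 TPM, and its mimic ratio was 0.03 (-0.21 to 0.27). Faim, an inhibitor of death receptor signals, stood at 40.85, 56.76, 64.12 and 40.63 TPM, a mimic ratio of 0.08 (-0.16 to 0.32). The transporter Abcg3 stood at 13.59, 19.57, 25.02 and 13.44 TPM, and Skp2, the ubiquitin ligase subunit that removes p27, at 6.51, 9.09, 8.35 and 6.79 TPM. In each of the 4 the wild-type and mimic levels were alike and the other knockout libraries were higher, the order for which they were picked. None of the 4 was called in the untransfected knockout, where their log2 ratios were 0.64, 0.62, 0.64 and 0.61. Llph and the ribosomal protein gene Rpl37 were the other members within 1.2-fold, and Rpl37 has near-identical copies and is uncertain. Prkcd, the signalling kinase PKC delta, stood at 91.79, 134.55, 129.47 and 106.28 TPM, and Vsir, an immune checkpoint protein, at 87.81, 134.79, 135.89 and 107.45 TPM, which were lowered only part of the way. Itgal, the integrin alpha chain of leukocytes, had the largest distance left, at 3.52, 19.56, 18.73 and 11.99 TPM and a mimic ratio of 1.89 (1.63 to 2.16). The remaining members were Palb2, Ebi3, Fam49a, Arfgef3, Shcbp1, Ocel1 and Ero1lb.

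**Figure D4:**
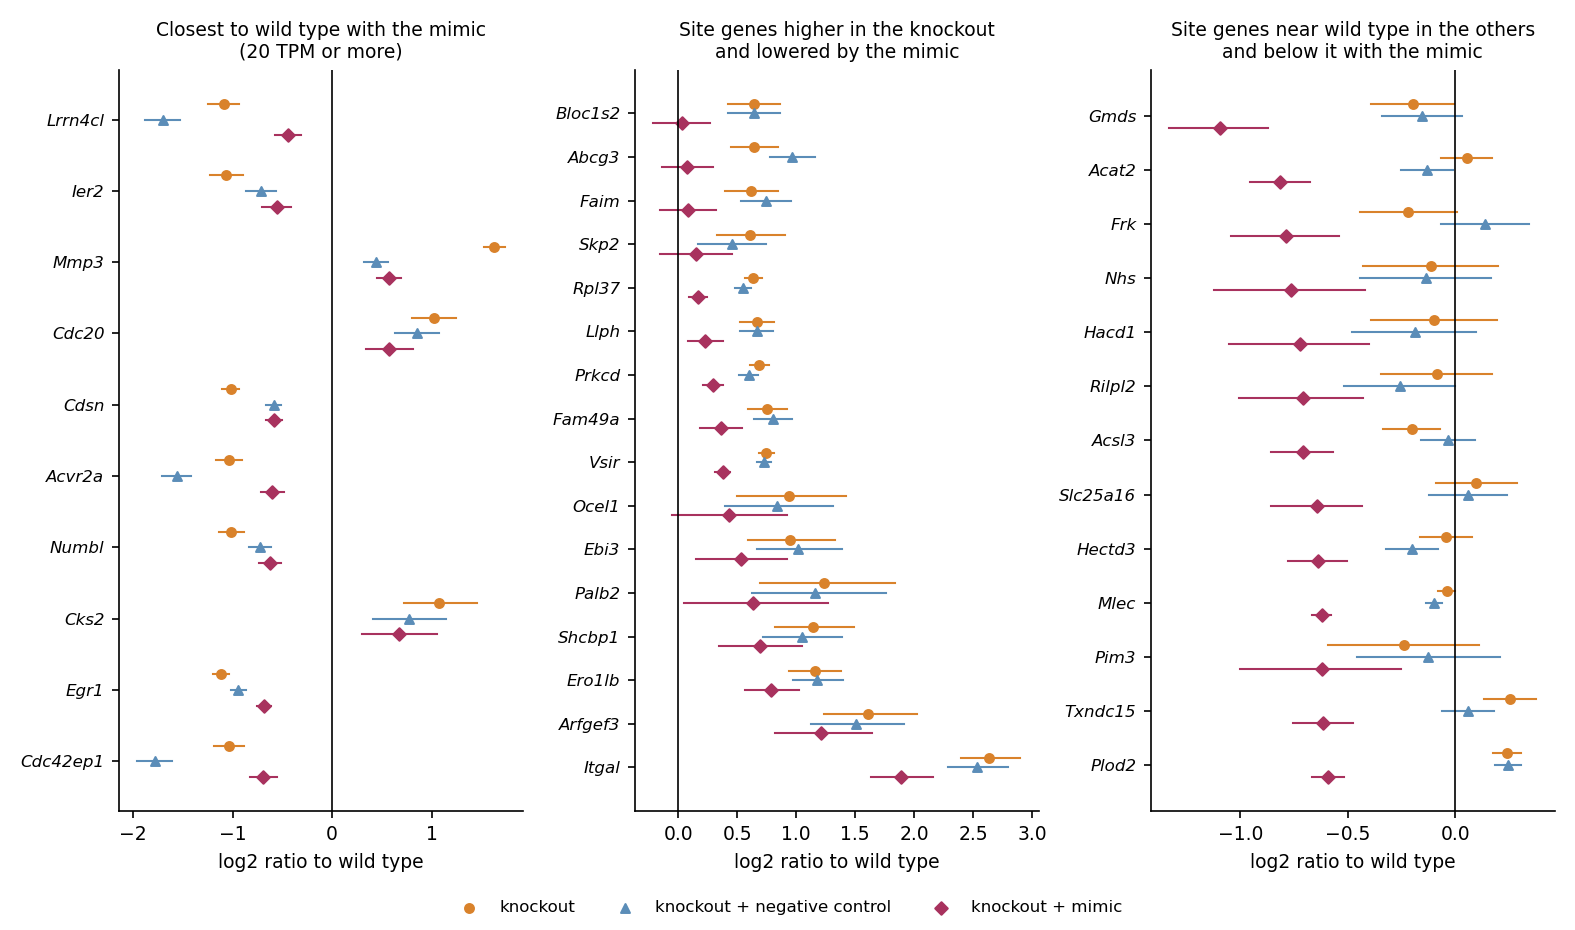
Log2 ratio to wild type (x axis) with 95% counting intervals in the untransfected knockout, negative-control and mimic libraries. The left panel holds the 10 genes nearest to wild type at 20 TPM or more in wild type or with the mimic. The middle panel holds the 16 site genes higher in the knockout and lowered by the mimic. The right panel holds the 13 site genes near wild type without the mimic and below it with the mimic. The site genes of both panels were picked by these orders of levels. By selection, therefore, the mimic points lie nearer 0 in the middle panel, as for Bloc1s2 at 0.03. They likewise lie below 0 in the right panel, as for Gmds at -1.10.

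Other site genes were near wild type without the mimic and below it with the mimic. This grouping was chosen after values were seen. Of 545 site genes within 1.2-fold of wild type both untransfected and with the negative control, 13 (2.39%) were at least 1.5-fold below wild type with the mimic and 0 were that far above. Of 3794 such genes without a site, 17 (0.448%) were below and 9 (0.237%) above. With the negative control in the place of the mimic, 9 of 572 site genes (1.57%) and 51 of 4028 others (1.27%) were below. From deposited TPM the counts below with the mimic were 6 site genes and 14 others. Among 226 genes with the 8-base site 10 (4.42%) were below with the mimic. The sites of the lowest, Gmds, of Acat2, and of Plod2, the lysyl hydroxylase that marks collagen for stable crosslinks and a published target with a pair of sites, are shown in the same way:
Gmds: actcatttTACTTGAaattatgt
Acat2: ctcctgaaTACTTGAattaaagg
Plod2, upstream site: tgaagttgTACTTGAgaagacaa
Plod2, downstream site: agcttacgTACTTGAattttata
They lie in 3′ UTRs at chr13:31819660-31819682 and chr17:12943451-12943473 on the minus strand and at chr9:92607293-92607315 and chr9:92608062-92608084 on the plus strand. Plod2 stood at 121.56, 131.52, 135.06 and 75.83 TPM, a mimic ratio of -0.59 (-0.67 to -0.52), low only with the mimic. Txndc15, a thioredoxin-domain membrane protein, stood at 91.23, 99.23, 89.27 and 56.05 TPM, and Mlec, the sugar-binding endoplasmic reticulum protein malectin, at 214.58, 191.22, 187.64 and 131.46 TPM. The others were Frk, Nhs, Hacd1, Rilpl2, Acsl3, Slc25a16, Hectd3 and Pim3.

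Genes reported elsewhere as targets of miR-26a were spread around the wild-type level. Of 44 measured, of which 35 held a 7-base and 25 an 8-base site, 24 lay above and 20 below wild type with the mimic. The median log2 ratio was 0.11 with the mimic, 0.19 untransfected and 0.30 with the negative control. Within 1.2-fold of wild type lay 19 with the mimic, 14 untransfected and 12 with the negative control. Of all measured genes, 47.0% lay within that distance with the mimic. This share was not counted for the untransfected and negative-control libraries, so the rise to 19 has no reference. The mimic library was lower than the negative control for 35 of the 44 and lower than the untransfected knockout for 30. The median log2 ratio of mimic to negative control was -0.31 for these targets, -0.04 for all site genes and -0.003 for genes without a site. Of mimic to untransfected knockout it was -0.09, -0.04 and 0.007. Shares of all measured genes lower with the mimic were not counted, and the target list was chosen with earlier results of these data known.

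Several targets stood nearer to the wild-type level with the mimic than in either other knockout library. Bak1, a pro-apoptotic protein, stood at 73.92, 93.59, 111.01 and 76.83 TPM, a mimic ratio of 0.14 (0.03 to 0.26). Adam17, the protease that sheds Tnf, stood at 55.52, 62.81, 72.74 and 55.88 TPM, and Ccne1, cyclin E1, at 19.19, 23.84, 30.25 and 19.77 TPM. Il6, the inflammatory cytokine, had 8.43, 10.51, 13.52 and 8.69 TPM but holds no site in the 3′ UTR used here. Kpna2, a nuclear import receptor that likewise holds none, had 92.42, 127.15, 133.91 and 101.3 TPM, a mimic ratio of 0.22 (0.12 to 0.32). Ezh2, the histone methyltransferase of the Polycomb complex, differed less between libraries, at 15.65, 17.7, 18.02 and 16.43 TPM.

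Other targets were below wild type with the mimic. Loxl2, a lysyl oxidase, stood at 98.12, 120.54, 121.43 and 73.77 TPM, above wild type without the mimic and below it with the mimic, at a ratio of -0.33 (-0.39 to -0.26). The autophagy kinase Ulk1 stood at 28.13, 18.61, 18.88 and 14.4 TPM, below wild type before transfection and lower still with the mimic. Called lower were Hgf, hepatocyte growth factor, at 28.44, 19.18, 14.59 and 11.5 TPM, Jag1, a Notch ligand, at 83.97, 51.17, 51.16 and 38.92 TPM, Tet1 and Col1a2. Col1a2, a chain of type I collagen, was alike in the 3 knockout libraries, at 2402.87, 2456.81 and 2399.81 TPM against 5430.58 TPM in wild type. Called higher were Ccne2, cyclin E2, and Ptgs2, the inducible cyclooxygenase, the latter at 5.76, 12.28, 11.49 and 13.53 TPM. Cdk6 stood farther above wild type with the mimic than without it, at 9.34, 12.32, 12.79 and 17.11 TPM, although it holds a pair of 8-base sites.

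**Figure D5:**
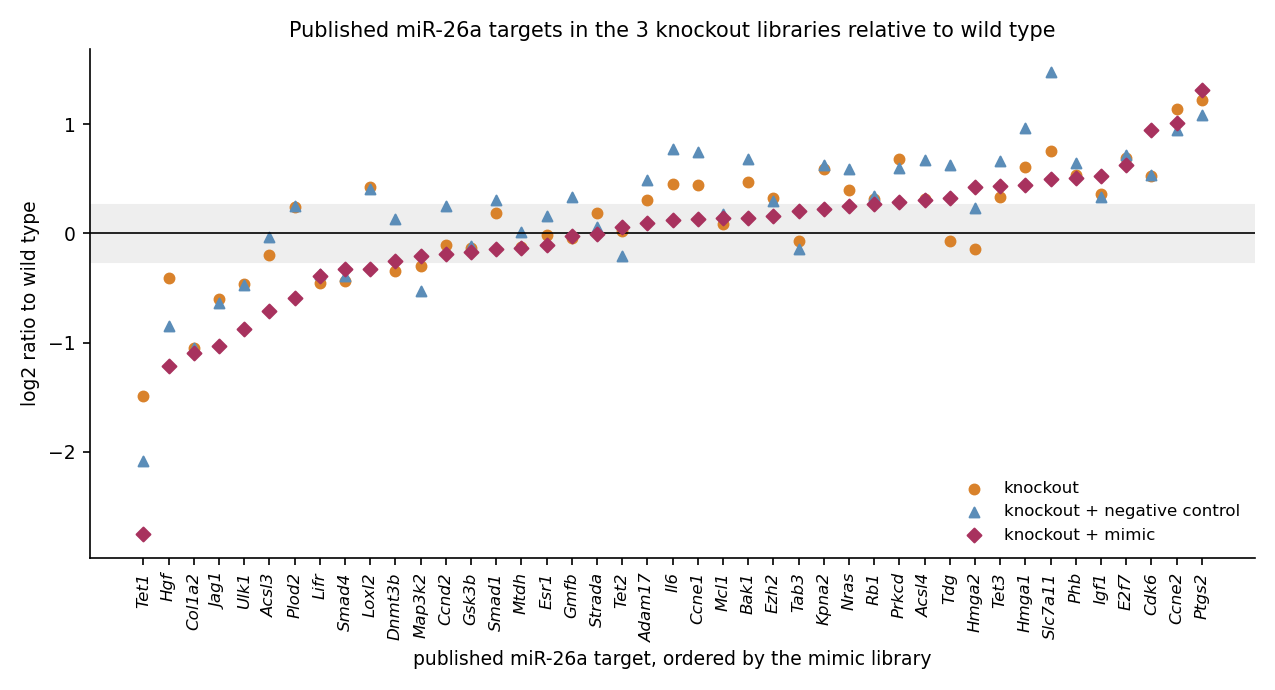
Log2 ratio to wild type (y axis) of published miR-26a targets in the untransfected knockout, negative-control and mimic libraries, ordered by the mimic; the grey band marks 1.2-fold either way. Of the measured targets 19 were within 1.2-fold with the mimic, against 14 untransfected and 12 with the negative control. Of all measured genes 47.0% were within that distance with the mimic, a share not counted for the other libraries.

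Of the host genes of miR-26a, only Ctdsp2 was called lower than wild type, and only with the mimic. Ctdsp2, whose intron holds Mir26a-2, stood at 184.55, 98.18, 102.1 and 83.34 TPM, a mimic ratio of -1.06 (-1.12 to -1.01), and its 3′ UTR holds a 7-base site. Ctdspl, the host of Mir26a-1, stood at 12.59, 11.79, 12.32 and 12.42 TPM, within 1.2-fold of wild type in every library. Ctdsp1, a relative that hosts another microRNA, had a mimic ratio of -0.20 (-0.30 to -0.11).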

How the data were processed

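RNA sequencing libraries were analysed from 4 groups with 1 library each, grouped by the sample labels. Per the submitters' processing notes FastQC, HISAT, Bowtie2 and the builds GRCm38.p6 and mm10 were used; their versions and roles were not listed. The sources used here do not name the quantifier, the annotation or the strand setting. Per the file headers the authors deposited read counts and TPM for 16416 genes. The authors deposited them as estimated counts (4.99% to 5.28% per library have decimals), not scaled by library size, and they were rounded for intervals. TPM also divides by estimated transcript length, so that TPM and count ratios can differ. The authors also deposited a table of log2 ratios with p-values and false discovery rates from a Poisson test. Its log2 ratios between mimic and wild type equalled the ratio of unscaled counts within 1e-06 for all 14633 genes counted in both. At 2-fold and a rate of at most 0.05, the authors' deposited table held 894 higher and 1061 lower genes, of which 739 and 925 were also called here.

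Counts were scaled with TMM factors (edgeR 4.0.16, R 4.3.3) of 0.978, 1.00, 1.02 and 0.997 for wild type, untransfected knockout, negative control and mimic, and a prior of 1 count was added. Intervals are exact conditional binomial (Clopper-Pearson) intervals at 95%. Intervals and the floor of 3 counts, 0.151 to 0.170 CPM, cover counting error alone, because reads without molecular identifiers are not separate molecules. The procedure was run on simulated Poisson counts, which hold counting error alone, as the intervals assume. That run cannot show how calls behave when cultures of 1 genotype differ. Spreadsheet dates in place of 26 gene symbols were restored through the Entrez identifier. The 3′ UTRs came from GENCODE M21 for 15790 genes (96.2%). Overlapping and near-identical genes can share reads. The comparison, the gene lists and the published targets were chosen with earlier results of these data known. Genes were named as the 10 largest ratios in each direction (at least 5 TPM, predicted and clone names left out) or TPM differences. Also named were the 10 nearest to wild type (20 TPM or more in wild type or with the mimic). Up to 10 close with the mimic alone and the 6 largest present after transfection were named too. To these were added the 4 largest ratios of a list and the 5 most abundant macrophage markers. The rest by rule were site genes lowered by the mimic, host genes and published targets. Other genes were chosen after their values were seen. Alternatives were DESeq2 1.42.0 size factors, total counts, TPM with 0.1 added, a minimum of 5 CPM or none, a prior of 5 counts and other fold limits. Scripts ran under Python 3.11.15 (scipy 1.17.1, numpy 2.4.6, matplotlib 3.10.9, pandas 2.3.3). Some items are not reported here.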

Additional observations from a re-analysis of the deposited data

How the results depend on the processing

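No paired analysis was possible because each group has 1 library, and for the same reason no library could be left out. With 1 library a side, no setting shows how far cultures of 1 genotype differ, and genes with few counts have wide intervals. The cause of the following shifts was not tested unless the setting itself gives it. Total counts in place of TMM moved the median of site genes to -0.028. With at least 5 CPM, and so fewer genes, 618 were lower, 2 of the genes called in the knockout were close with the mimic, 6 were close with the mimic but called in both other knockout libraries, and 3 were called with the mimic but near wild type untransfected. With no minimum 12 were close and 30 were called with the mimic but near wild type untransfected. Deposited TPM gave a site median of -0.13 (-0.05 without a site), 8 restored site genes and 6 below wild type with the mimic alone. A 1.5-fold limit gave 1460 higher, 1760 lower, 2544 still called, 90 close, 260 close with the mimic but called in both others, and 105 called with the mimic but near wild type untransfected. A 3-fold limit gave 283, 445, 518, 0, 0 and 3. Exchanging the 1.2-fold and 1.5-fold limits for closeness gave 47, 2 and 70 for the last 3 of these. The 8-base site gave a median of -0.10 and 9 restored genes, and a 1.2-fold rise in the knockout gave 39. With the negative control as the starting library 30 were close. Among 245 named genes, a reversal was looked for only in those called in the main setting, and 0 reversed under any of 6 settings. Such genes lie at least 2-fold from wild type, where a reversal by scaling could hardly occur. Between 0 and 24 were no longer called, 24 of them at 5 CPM. Newly called were 4 from deposited TPM (Bgn, Pcolce, Loxl1 and Acsl3, all lower) and 1 from total counts (C1qc, higher).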
